A study of Mus musculus with 24 samples.

Results

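The Hox genes encode homeodomain transcription factors that lie in 4 clusters, Hoxa, Hoxb, Hoxc and Hoxd, and this account follows every one of them that the deposited count table lists, 31 of the 39 genes that GENCODE M21 places in the clusters. Members were taken by symbol alone, as a cluster letter followed by a number, with no measured value used. They were 7 Hoxa, 10 Hoxb, 6 Hoxc and 8 Hoxd genes among 32962 genes in the table. Hoxa3, Hoxa4, Hoxa5, Hoxa6, Hoxc6, Hoxc8, Hoxc9 and Hoxd4 were not analysed here, and each of these 8 is overlapped over its whole length, within 500 bases, by another gene model of the annotation. Genes of a cluster are numbered 1 to 13 by their order, and genes with the same number in different clusters are paralogs. In the embryo, low-numbered genes are switched on further toward the head and high-numbered genes further toward the tail, and the combination gives each level of the hindbrain and spinal cord its identity. Adult spinal neurons keep much of this expression, and Pbx and Meis proteins act as DNA-binding partners of Hox proteins.

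The study profiled nuclei of the lumbar spinal cord from 24 male and female ICR/CD-1 mice aged 8 to 11 weeks, with the dorsal root ganglia removed, using Drop-seq, in which nuclei are caught in droplets and every captured mRNA receives a unique molecular identifier (UMI). All mice shared this strain, and no allele is named. The 9 control mice had no stated stimulus, the 10 formalin mice had the sole of each hindpaw injected with 2% paraformaldehyde (30 µl), and the 5 rotarod mice ran on a turning rod whose speed rose to 40 rotations per minute within 5 minutes, after 1 hour of habituation for the stimulated mice. No label states that the samples came from separate animals, and a sample is called a mouse here. Formalin samples 1 to 5 resembled samples 6 to 10 in that order: the deviations of each such pair from the group mean correlated at 0.158 to 0.404 over 6594 genes, against at most 0.094 for the other formalin pairs, and all 10 samples were closest to their partner. Whether a pair shares an animal was not tested, so n = 10 counts samples. Results with the pairs merged are given beside the group calls of the main fits. Group calls made only under other settings were not fitted with the pairs merged and rest on 10 formalin samples. The labels name the tissue as brain, and the protocol names the spinal cord. In neurons of control mice the Hox genes together reached 1139 ± 152 CPM (counts scaled to a fixed library total, SD, n = 9).

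Each mouse contributed 750 barcodes and 549903 to 3243587 UMIs, from 640279 in control, 549903 in formalin and 660286 in rotarod mice to 3243587, 1707338 and 3209063. The authors' annotation placed 13425 of 18000 barcodes in 7 classes, discarded 3818 and left 757 without a label. It also placed 4280 of the 7103 neuronal nuclei in 43 populations of 8 families, named DE, DI, ME, MI, VE, VI, VC and VM. The letters D, M and V are taken here to mean dorsal, mid and ventral, while E stands for excitatory and I for inhibitory. Only 19 barcode sequences were seen in more than 1 mouse. Levels are given as CPM, the UMIs of a gene scaled to a common total of UMIs (1e+06) of the same nuclei of a mouse, with the mouse as the replicate. Fewer nuclei making a transcript and less transcript per nucleus cannot be told apart in such sums.

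Few Hox genes carried most of the signal. The 31 genes held 33915 UMIs in all barcodes, 25131 of them in neurons, and Hoxc4 and Hoxc5 together gave 49.7% of the neuronal Hox UMIs. Of the members, 17 had at least 100 UMIs in neurons, 10 had under 20, and Hoxb13 had 0. In control neurons (n = 9 mice) Hoxc5, on chromosome 15 from 102967443 to 103017429, stood at 290.5 ± 59.4 CPM and Hoxc4, on chromosome 15 from 103018934 to 103036852, at 264 ± 95.3. These genes lie side by side (GRCm38, plus strand), and their spreads over mice overlapped. Hoxb6 stood at 122 ± 26.2 CPM, Hoxb3 at 100.2 ± 26.4, Hoxa9 at 86.7 ± 18.5, Hoxb4 at 73.9 ± 26.7 and Hoxb5 at 50.5 ± 13.2. Hoxa7 stood at 32.8 ± 9.98, Hoxd3 at 22.9 ± 6.68 and Hoxb8 at 21.9 ± 5.94 CPM.

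These levels count captured mRNAs and are not divided by length. Each captured mRNA receives a UMI whatever its length, so the values per kilobase below are a description and no correction. Neither scale is taken as the true order of the genes. Divided by exon length, control neurons held 103 CPM per kilobase of exon for Hoxc4, 94.0 for Hoxc5, 61.9 for Hoxb6, 28.8 for Hoxb4 and 23.6 for Hoxb3. Divided by the whole gene span, which would weigh intron reads if they were counted, Hoxb4 led at 21.9 CPM per kilobase, followed by Hoxb5 at 18.1, Hoxc4 at 14.7 and Hoxb6 at 13.4, and Hoxc5 stood at 5.81. The Hoxc5 model is long because it runs over the whole of Hoxc9, Hoxc8 and Hoxc6 and part of Hoxc10, and the Hoxd3 model runs over Hoxd4. Neither the annotation nor the handling of overlapping genes and strand is given in the sources used here, so UMIs named Hoxc5 or Hoxd3 may derive from the genes inside them. Likewise Hoxb2, Hoxb5, Hoxb6 and Hoxd8 lie within an antisense gene model, and 9 members overlap one in part or whole.

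Among genes known for setting lumbar identity, Hoxa10, Hoxd10 and Hoxc10 ranked 12, 17 and 24 of the 31 members by CPM not divided by length. Per kilobase of exon they stood at 4.01, 2.90 and 0.391 CPM, with ranks of 13, 14 and 23. Of the paralogs numbered 10, whose products pattern lumbar motor neurons in the embryo, Hoxa10 stood at 13.1 ± 2.68, Hoxd10 at 5.26 ± 3.07 and Hoxc10 at 0.747 ± 0.833 CPM in control neurons. Among the next paralogs, Hoxd11 stood at 8.95 ± 3.97, Hoxc11 at 2.96 ± 1.58 and Hoxa11 at 0.789 ± 1.13 CPM. At the tail end of the clusters, Hoxc13 had 32 UMIs in all neurons, Hoxd13 had 3, Hoxa13 had 2 and Hoxd12 had 1. At the other end, the hindbrain genes Hoxb1 and Hoxd1 had 2 and 1 UMIs, and Hoxa2 had 50.

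UMIs of Hox genes were counted in every class of nuclei, at unlike levels. Pooled over mice, all Hox genes together stood at 1130.2 CPM in neurons, 1088 in meningeal or Schwann cells, 753 in astrocytes, 549 in oligodendrocyte precursors, 481 in endothelial or vascular cells, 473 in microglia and 273 in oligodendrocytes. The 2 smallest classes, with 183 and 165 nuclei, entered no test. In control mice, with 4295 genes tested by edgeR, 6 Hox genes passed the filter on low counts: Hoxa9, Hoxb3, Hoxb4, Hoxb6, Hoxc4 and Hoxc5. All 6 were higher in neurons than in oligodendrocytes, where 61.2% of all genes tested were called in either direction. The log2 fold changes ran from 0.75 (SE 0.19) for Hoxc4, 264 against 134 CPM, to 3.07 (SE 0.30) for Hoxb6, 122 against 13.5 CPM. Each of these edgeR adjusted p values was 0.000285 or smaller.

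Hoxc5 set neurons apart from every class tested. It stood at 290.5 ± 59.4 CPM in neurons, 109 ± 36.9 in astrocytes (n = 8), 105 ± 42.1 in meningeal or Schwann cells (n = 9), 42.4 ± 15.3 in oligodendrocytes (n = 8) and 38.6 ± 50.4 in vascular cells (n = 9). The log2 fold changes of neurons over these classes were 1.30 (SE 0.21), 1.64 (SE 0.18), 2.61 (SE 0.22) and 3.05 (SE 0.27), with edgeR adjusted p values of 8.7e-08 or smaller. Its neighbour Hoxc4 did not follow: meningeal or Schwann cells had 343 ± 162 CPM and astrocytes 224 ± 103, and neither difference from neurons was called. Hoxc4 was higher in neurons than in vascular cells (log2 1.31, SE 0.22, 264 against 114 CPM).

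Some members were lower in neurons. Hoxa9, a gene best known for its part in blood stem cells and limb patterning, stood at 120.2 ± 42.3 CPM in astrocytes and 86.7 ± 18.5 in neurons (log2 -0.57, SE 0.22, edgeR adjusted p = 0.0238). Hoxb4 stood at 108 ± 72.3 CPM in meningeal or Schwann cells and 73.9 ± 26.7 in neurons (log2 -0.44, SE 0.19, edgeR adjusted p = 0.0410). The Hoxa9 call was lost without control replicate 1, 2, 3 or 6 and the Hoxb4 call without control replicate 2, 3, 7, 8 or 9. With no filter on low counts their edgeR adjusted p values were 0.737 and 0.818. Hoxb3 and Hoxb6 were higher in neurons than in astrocytes (log2 0.86 and 0.90) and than in vascular cells (1.37 and 0.92). With no filter these values were 1.22 and 1.25, and 1.98 and 1.54, each shifted toward neurons. Calls lost or gained in the class fit with no filter should be read against that shift. Against meningeal or Schwann cells, 2 of the 6 genes were called, 4 against astrocytes and 5 against vascular cells, where 65.3%, 55.9% and 68.5% of all genes were called. Nothing particular to the Hox genes is read from these counts.

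**Figure D1:**
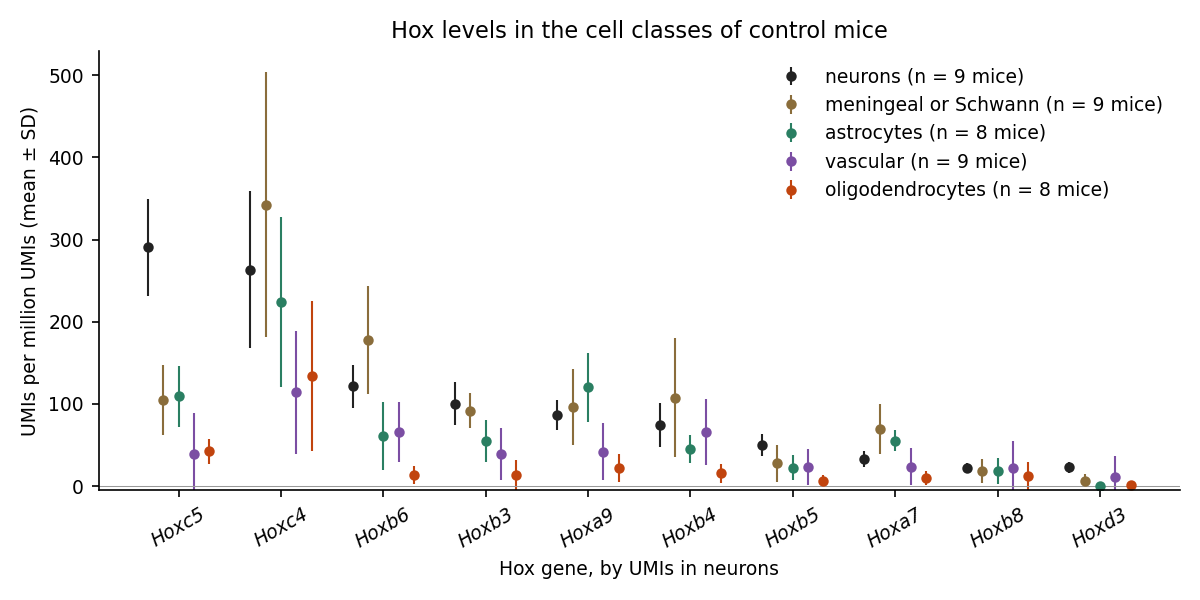
Mean level (points) and SD between control mice (bars) of the 10 Hox genes with most UMIs in neurons, in CPM, for 5 classes of nuclei. Hoxc5 stands at 290.5 in neurons and at 109 or less in the other classes, while Hoxc4 is highest in meningeal or Schwann cells at 343.

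RNA free in the suspension can enter any droplet. The 7 neuronal markers together, among them Snap25 and Gad1, stood at 3323 CPM in control neurons and at 741 in astrocytes, 695 in meningeal or Schwann cells, 782 in oligodendrocytes and 534 in vascular cells. The part of such carried-over RNA in the Hox levels of these classes was not tested. Pooled over mice, discarded barcodes held 798 CPM of Hox UMIs and barcodes with no label 789. Both lie above every class but neurons and meningeal or Schwann cells. Nuclei also differed in depth, with median UMI counts of 2214 in neurons, 1538 in vascular cells, 1281 in meningeal or Schwann cells, 1215 in astrocytes and 1092 in oligodendrocytes.

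Within neurons, Hoxb3, Hoxb4, Hoxb6 and Hoxa9 were higher in the dorsal families and Hoxc5 in the ventral families. Hoxb5, Hoxb7, Hoxb8, Hoxb9 and Hoxa7 were too low in counts for that fit and were called higher in dorsal families only with no filter on low counts. No single Hoxd gene was called. The dorsal horn holds the neurons that receive touch, itch and pain input, and the ventral horn those that drive movement. Summed over nuclei of each control mouse, the Hoxb genes together stood at 587 ± 68.6 CPM in dorsal neurons (DE and DI) and 237 ± 77.2 in ventral neurons (VE, VI, VC and VM). The 2 ranges did not overlap: 482 to 673 in dorsal and 137 to 369 in ventral neurons. The Hoxa genes together stood at 177 ± 44.1 against 109 ± 20.2 CPM, higher in dorsal neurons in 9 of 9 mice. The Hoxc genes stood at 479 ± 139 against 621 ± 168 and the Hoxd genes at 28.5 ± 7.79 against 58.8 ± 13.7, both higher in ventral neurons in 9 of 9 mice. All Hox genes together differed less, at 1271 ± 164 against 1025 ± 191 CPM. Families are the authors' clusters of these same nuclei, so p values between families describe the clusters and are no independent support.

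In the fit of families in control mice, dorsal against ventral, 5 of 6 Hox genes tested were called, where 29.7% of all 3072 genes tested were called in either direction. For Hoxb3 the log2 fold change was 1.29 (SE 0.16, edgeR adjusted p = 2.0e-11), with 139 ± 40.9 CPM in dorsal and 59.6 ± 22.6 in ventral neurons. Hoxb4 had 1.25 (SE 0.19, edgeR adjusted p = 5.4e-08), with 116 ± 42.9 against 46.7 ± 32.3 CPM, and Hoxb6 had 1.11 (SE 0.14, edgeR adjusted p = 6.2e-11), with 176 ± 41.2 against 76.5 ± 33.1. These 3 genes were higher in dorsal neurons in 9 of 9 control mice. Hoxa9 had 0.75 (SE 0.16, edgeR adjusted p = 9.3e-05), with 118 ± 31.4 against 66.6 ± 18.9 CPM, higher in 8 of 9 mice. Hoxc5 had -0.56 (SE 0.10, edgeR adjusted p = 4.0e-06), with 222 ± 47.9 CPM in dorsal and 335 ± 56.4 in ventral neurons, higher in ventral neurons in 9 of 9 mice. Hoxc4 had -0.08 (SE 0.11, edgeR adjusted p = 0.652), with 255 ± 96.5 against 274 ± 115 CPM, and the order of the regions differed between mice, 4 one way and 5 the other.

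The filter kept the 6 most counted members, so the same model was fitted with no filter on 26022 genes, 29 of them Hox genes. Then 10 Hox genes were called, where 5.27% of all genes were. That share includes the genes that the filter removes for low counts. It is not comparable with the 29.7% of the filtered fit and measures no excess of Hox genes. The same holds for the other shares given with no filter. Hoxb8, a gene known from mice whose loss of it alters grooming and pain sensitivity, had a log2 fold change of 2.03 (SE 0.31), with 34.8 ± 16.4 CPM in dorsal and 8.64 ± 6.70 in ventral neurons. Hoxb9 had 2.01 (SE 0.33), 30.5 ± 11.6 against 4.37 ± 4.33 CPM, and Hoxb5 had 1.12 (SE 0.21), 69.2 ± 16.6 against 30.4 ± 18.4. Each of these was higher in dorsal neurons in 9 of 9 mice. Hoxb7 had 2.00 (SE 0.47) at 12.3 ± 9.53 against 5.53 ± 5.72 CPM, and Hoxa7 1.49 (SE 0.27) at 41.5 ± 18.7 against 26.4 ± 15.1, each with an edgeR adjusted p of 0.000917 or smaller but higher in 7 and 6 of 9 mice. Hoxb2 at 0.59 (SE 0.49) and Hoxa10 at 0.37 (SE 0.33) were not called. The 6 genes tested in both fits all shifted by 0.09 to 0.11 toward dorsal without the filter, and fold changes near 0 should be read against that shift.

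**Figure D2:**
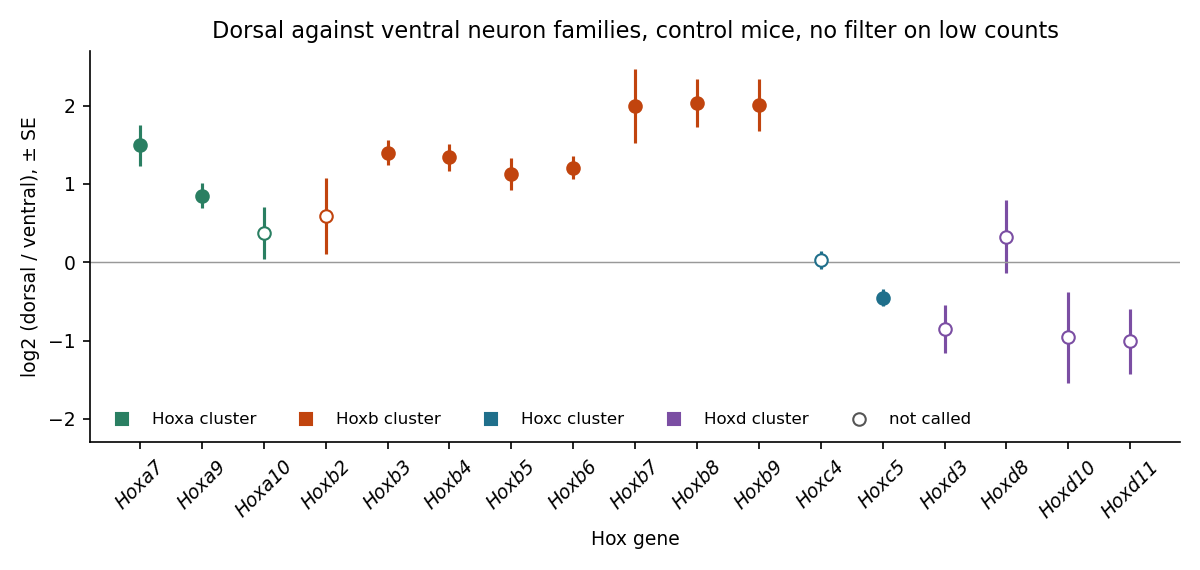
Log2 fold change of dorsal over ventral families in control mice (points) with its SE (bars) for the 17 Hox genes with at least 100 UMIs in neurons, fitted with no filter on low counts. Filled points passed the adjusted threshold and open points did not. Hoxb3 to Hoxb9 all lie between 1.12 and 2.03, Hoxc4 lies at 0.03 and Hoxc5 at -0.45.

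Apart from Hoxc5, no member was called higher in ventral families, with or without the filter. Hoxd3 stood at 33.4 ± 13.8 CPM in ventral and 13.9 ± 5.73 in dorsal neurons, higher in ventral neurons in 9 of 9 mice, and its log2 value of -0.85 (SE 0.31, edgeR adjusted p = 0.0893, no filter) was not called. Hoxd11 stood at 9.16 ± 6.88 against 4.25 ± 4.44 CPM (higher in 6 of 9 mice), Hoxd10 at 7.96 against 3.06 (7 of 9) and Hoxc11 at 5.35 ± 4.98 against 0.899 ± 1.44 (7 of 9). None of these 3 was called. By paralog number, the summed genes numbered 3, 6, 8 and 9 were higher in dorsal neurons in 9 of 9 mice. Those numbered 5 were higher in ventral neurons in 8 of 9, and those numbered 11 in 8 of 9, at 16.8 ± 9.30 against 5.15 ± 5.29 CPM. Such sums can hide members that differ. Number 6 is Hoxb6 alone among the members, and number 3 joins Hoxb3 with Hoxd3, which was higher in ventral neurons. Number 5 joins Hoxb5, higher in dorsal neurons in 9 of 9 mice, with Hoxc5, higher in ventral neurons in 9 of 9. Hotair, a noncoding gene within the Hoxc cluster, had 11.1 ± 5.97 CPM in ventral and 1.17 ± 1.95 in dorsal neurons.

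Ventral nuclei were deeper, with 5149 ± 1334 UMIs per nucleus in control mice against 2840 ± 584 in dorsal nuclei, and the part of depth in the difference was not tested. Of 4 genes listed here as dorsal horn markers, Lmx1b, Tlx3 and Lbx1 were higher in dorsal neurons, at 88.8 against 19.0, 3.73 against 0.479 and 3.89 against 1.25 CPM. The other, Zfhx3, was lower in dorsal neurons, at 146 against 825 CPM, and brought the list as a whole to 242 against 845. Of 3 genes listed as ventral horn markers, Esrrg and Chrm2 were higher in ventral neurons, at 656 against 192 and 489 against 350.2 CPM. The last, Nfib, was lower in ventral neurons, at 64.3 against 129. Zfhx3 and Nfib thus do not serve as markers of the families they were listed for, and the family names are not judged by them. Leaving out 3 control mice, those with titles ending in cx, Hoxb3, Hoxb6 and Hoxc5 were still called, Hoxa9 was not (edgeR adjusted p = 0.101) and Hoxb4 did not enter the test.

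Bases before the start site are shown for 3 of the genes that were higher in dorsal neurons, since these genes were higher together in dorsal neurons (Hoxb8 by the fit with no filter) and 18 of the 31 members have an entry in the RefSeq promoter table (GRCm38.p6). Each line gives the 250 bases upstream of the start on the gene's own strand: Hoxb4 at chr11:96318017-96318266 and Hoxb8 at chr11:96281655-96281904, both on the plus strand, and Hoxa9 at chr6:52227371-52227620 on the minus strand. The GENCODE model of Hoxa9 runs from 52223100 to 52231089, so the stretch before its RefSeq start lies inside that model. Capitals mark TTTAT on either strand, a core that homeodomain proteins of the caudal and tail-end Hox kind can bind.
Hoxb4: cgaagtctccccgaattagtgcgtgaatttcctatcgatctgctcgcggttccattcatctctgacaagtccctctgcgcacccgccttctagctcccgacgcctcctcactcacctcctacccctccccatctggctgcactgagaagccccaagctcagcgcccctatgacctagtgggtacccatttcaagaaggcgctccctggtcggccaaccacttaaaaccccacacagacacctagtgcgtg
Hoxb8: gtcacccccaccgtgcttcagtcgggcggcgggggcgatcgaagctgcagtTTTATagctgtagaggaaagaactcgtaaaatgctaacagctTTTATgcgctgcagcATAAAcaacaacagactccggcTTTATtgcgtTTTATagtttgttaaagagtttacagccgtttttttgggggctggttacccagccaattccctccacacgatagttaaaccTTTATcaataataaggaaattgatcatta
Hoxa9: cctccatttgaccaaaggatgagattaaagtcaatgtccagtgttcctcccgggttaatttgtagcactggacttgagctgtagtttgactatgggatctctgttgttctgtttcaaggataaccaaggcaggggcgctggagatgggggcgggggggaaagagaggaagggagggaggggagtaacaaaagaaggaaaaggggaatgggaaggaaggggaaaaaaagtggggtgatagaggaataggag
The Hoxb8 stretch holds 6 matches and the other two hold none. Of 32851 promoter stretches of the same length, 37.3% hold at least 1 match and 0.393% at least 6. TATAAA, which overlaps TTTAT read on the other strand, occurs 2 times before Hoxb8 and in 12.4% of all stretches. The Hox and Pbx composite TGATTNAT is in none of the 3 and in 2.82% of all stretches. The 3 stretches thus share no searched motif, and a match describes letters, not binding.

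Each family was then set against the mean of the others in control mice (3072 genes tested, 6 of them Hox genes). In DE, the dorsal excitatory family, 4 Hox genes were called, all higher, where 24.3% of all genes were called in either direction: Hoxb4 (131 ± 39.5 CPM, log2 1.22), Hoxb6 (202 ± 60.7, log2 1.05), Hoxb3 (135 ± 38.2, log2 0.78) and Hoxa9 (122 ± 39.9, log2 0.65). In DI, the dorsal inhibitory family, 5 were called, where 17.5% of all genes were. Hoxb3 (147 ± 66.1 CPM, log2 1.11), Hoxb4 (96.1 ± 59.5, log2 0.70) and Hoxb6 (147 ± 35.5, log2 0.63) were higher, and Hoxc5 (168 ± 28.9, log2 -0.84) and Hoxc4 (202 ± 93.2, log2 -0.45) were lower. The dorsal families thus shared high Hoxb levels, and low Hoxc levels were called in DI.

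Ventral and mid families had fewer calls. VE had lower Hoxb4 (37.0 ± 34.5 CPM, log2 -0.76) and Hoxb6 (82.9 ± 34.0, log2 -0.55), where 14.4% of all genes were called, and VC had lower Hoxb6 (54.2 ± 45.6, log2 -0.73), where 13.4% were. VI had higher Hoxc5 (373 ± 102 CPM, log2 0.38), where 19.5% were called. ME had higher Hoxc4 (488 ± 234 CPM, n = 7 mice, log2 0.82, edgeR adjusted p = 0.0117), where 3.61% were called. It rests on 55 nuclei and was lost without control replicate 2 (log2 0.68, edgeR adjusted p = 0.118). MI and VM had 0 Hox calls by edgeR, where 3.09% and 0.13% of all genes were called. At an unadjusted p under 0.05 they had 0 and 1 Hox gene, where 12.7% and 8.82% of all genes passed. With no filter on low counts the calls of Hoxc4 in DI (edgeR adjusted p = 0.208) and ME (0.387), of Hoxb6 in VC (0.0677) and of Hoxb4 and Hoxb6 in VE (0.225 and 0.403) were lost. Without the cx control mice the 14 calls over the 8 families fell to 4, Hoxb3 and Hoxb6 in DE and Hoxb3 and Hoxc5 in DI.

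Transmitter type was compared next. Over excitatory (DE, ME and VE) against inhibitory (DI, MI and VI) families, 1 of 6 Hox genes was called, where 8.79% of all genes were: Hoxc4, at a mean over families of 349 against 243 CPM and a log2 difference of 0.46 (SE 0.12, edgeR adjusted p = 0.00279). That call was lost with at least 10 nuclei per mouse and family (edgeR adjusted p = 0.178) and without the filter (0.0507). Whether the Hox genes differ less by transmitter than by position was not tested.

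Single populations covered a wide range. UMIs were pooled over the mice of all groups, and the intervals are exact 95% Poisson intervals that cover counting error only. Groups were unequally present, with 464 of 1432 DE nuclei and 127 of 612 VI nuclei from formalin mice, and the Hoxc sum in neurons was 560 CPM in control, 440.0 in formalin and 710.2 in rotarod mice. The part of this makeup in the order of populations was not tested. Hoxb genes together ran from 184 CPM (140 to 238) in VE-2 to 1046 CPM (887 to 1225) in DE-6, with DE-5 next at 963. The 10 populations highest in Hoxb were all dorsal and the 10 lowest held no dorsal one, where 25 of the 43 populations are dorsal. For Hoxa the 10 highest were also all dorsal, led by DE-11 at 388 CPM (331 to 450.3), where Hoxa9 alone reached 317 CPM (266 to 374) against a median of 72.3 over populations. Hoxc genes ran from 131 CPM (93.2 to 179) in DI-4 and 141 in DI-2 to 932 in VI-2 and 942 (822 to 1075) in DE-12, and 9 of the 10 lowest were dorsal. All 10 populations lowest in Hoxd were dorsal, among them DE-7 with 0 Hoxd UMIs, with an upper bound of 17.5 CPM by the same kind of interval.

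**Figure D3:**
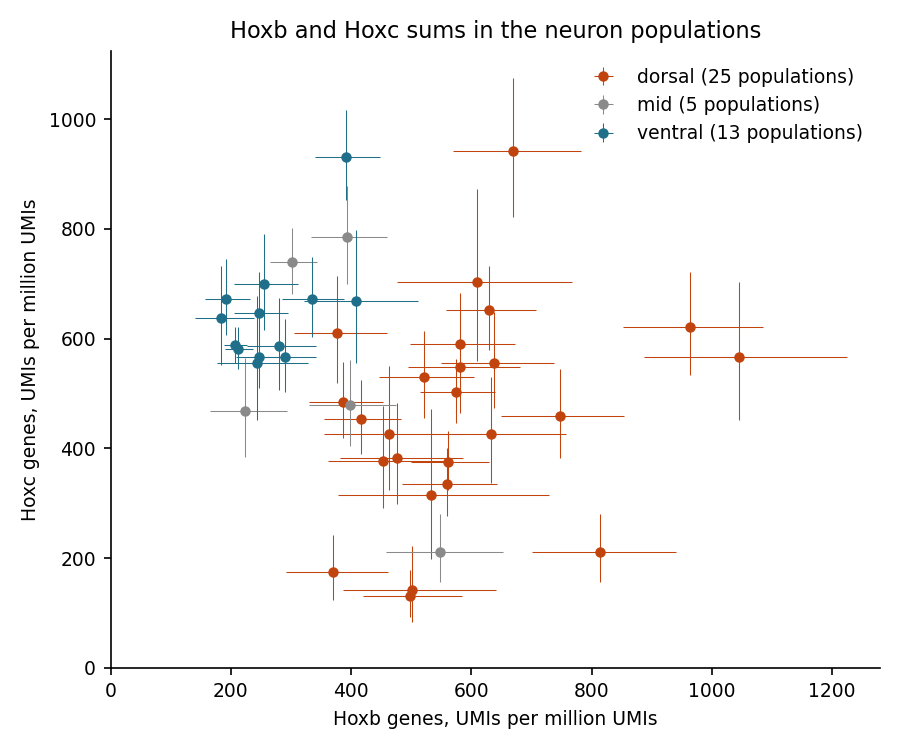
Summed Hoxb level (horizontal) and summed Hoxc level (vertical) of 43 neuron populations in CPM, pooled over mice, with exact 95% Poisson intervals. Dorsal populations reach from 131 to 942 on the Hoxc axis and up to 1046 on the Hoxb axis, and the 10 populations lowest in Hoxb include no dorsal one.

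Across the populations, the median likeness was higher for genes of 1 cluster than for paralogs, a difference that was not tested. The 21 members with at least 20 UMIs summed over the 43 populations were compared by Pearson's r of log2(CPM + 1). Its median was 0.38 over 50 pairs within a cluster, -0.04 over 11 pairs with the same number and -0.14 over 149 other pairs. The closest pairs were Hoxc4 with Hoxc5 (0.88), Hoxb3 with Hoxb4 (0.81), Hoxb4 with Hoxb6 (0.77), Hoxb3 with Hoxb6 (0.76) and Hoxb4 with Hoxb5 (0.75), each pair within a cluster. Pairs within Hoxb, 28 of the 50, had a median of 0.56. The median was 0.32 within Hoxc (6 pairs), 0.29 within Hoxd (10 pairs) and -0.04 within Hoxa (6 pairs). Within Hoxa it was thus no higher than for paralogs. Hoxa with Hoxb had 0.24 and Hoxc with Hoxd 0.26, while Hoxb with Hoxc had -0.24 and Hoxb with Hoxd -0.26. The lowest values were -0.67 for Hoxb7 with Hoxc11 and -0.64 for Hoxb5 with Hoxd10. These values describe populations that share libraries and differ in depth. The minimum of 20 UMIs is low for 43 populations. Hoxc11, Hoxa2 and Hoxc13 had 78, 50 and 32 UMIs in all neurons, and the part of detection in the values of such sparse members was not tested.

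Partners and regulators of Hox proteins are described from lists that follow textbook roles. In dorsal against ventral families, 5 of the 6 tested of 9 TALE cofactor genes were called, where 29.7% of all genes were. Pknox2 (log2 1.30, 219 against 90.5 CPM as means over families) and Pbx4 (log2 0.64, 83.6 against 51.8) were higher in dorsal families. Meis2 (log2 -1.76, 92.2 against 264), Pbx3 (log2 -1.01, 125 against 220) and Meis1 (log2 -0.77) were lower. Meis1 split by transmitter, at 271 CPM in DE and 21.5 in DI, and its family means were near equal at 146 dorsal and 144 ventral CPM, while the fit averages on the log scale. Of 15 Polycomb genes, whose products keep Hox genes silent, 2 were tested and Phc2 was higher in dorsal families (log2 0.32). Of 6 Trithorax and demethylase genes, which oppose Polycomb, 2 were tested and 0 called. Of 12 genes that set Hox expression in the embryo, the retinoic acid receptor Rarb was tested and not called. None of the 17 noncoding genes of the clusters was tested in that fit.

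Most Hox genes gave no call between the 3 groups of mice in neurons. In 1 fit of neurons over the 3 groups (9103 genes tested, 13 of them Hox genes), edgeR called 0 genes in formalin against control mice, with 766 (8.41%) at an unadjusted p under 0.05, 3 of them Hox genes. It called 0 in rotarod against control mice, with 782 (8.59%), 3 of them Hox genes. DESeq2 called 2 and 15 genes, none of them a Hox gene. All Hox genes together stood at 1139 ± 152 CPM in control, 1020.1 ± 51.8 in formalin (n = 10) and 1317 ± 288 in rotarod mice (n = 5). The Hoxb sum was 397 ± 54.5, 388 ± 38.3 and 443 ± 106 CPM in that order, the Hoxa sum 136 ± 27.5, 142 ± 17.4 and 122 ± 17.4, and the Hoxd sum 46.0 ± 7.86, 50.1 ± 11.0 and 41.2 ± 12.99, with the ranges of the groups overlapping in each.

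Hoxc4 was called in formalin against rotarod mice. Its control values ran from 150.05 to 431 CPM with a median of 239, its formalin values from 128 to 213 with a median of 171, and its 5 rotarod values were 411, 225, 464, 313 and 301. All 5 rotarod mice and 5 of 9 control mice lay above every formalin sample, and 2 of 10 formalin samples lay below every control mouse. The log2 fold change of formalin against rotarod mice was -1.05 (SE 0.23, edgeR adjusted p = 0.0209), 172 ± 30.0 against 343 ± 94.9 CPM, where 196 genes or 2.15% of those tested were called. Against control mice the values were -0.69 (SE 0.20, edgeR adjusted p = 0.472) for formalin and 0.36 (SE 0.23, edgeR adjusted p = 0.709) for rotarod mice, and the 3 contrasts share samples. With no filter on low counts the formalin against control difference was called (log2 -0.76, edgeR adjusted p = 0.00543), where 0.101% of genes were. That share is over all genes with a count, low ones included, and that fit did not merge the formalin pairs. In the filtered fit, merging formalin samples 1 to 5 with 6 to 10 ended the call against rotarod mice (log2 -1.05, edgeR adjusted p = 0.121). So did leaving out rotarod replicate 1 (edgeR adjusted p = 0.0584) or rotarod replicate 3 (edgeR adjusted p = 0.0713).

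**Figure D4:**
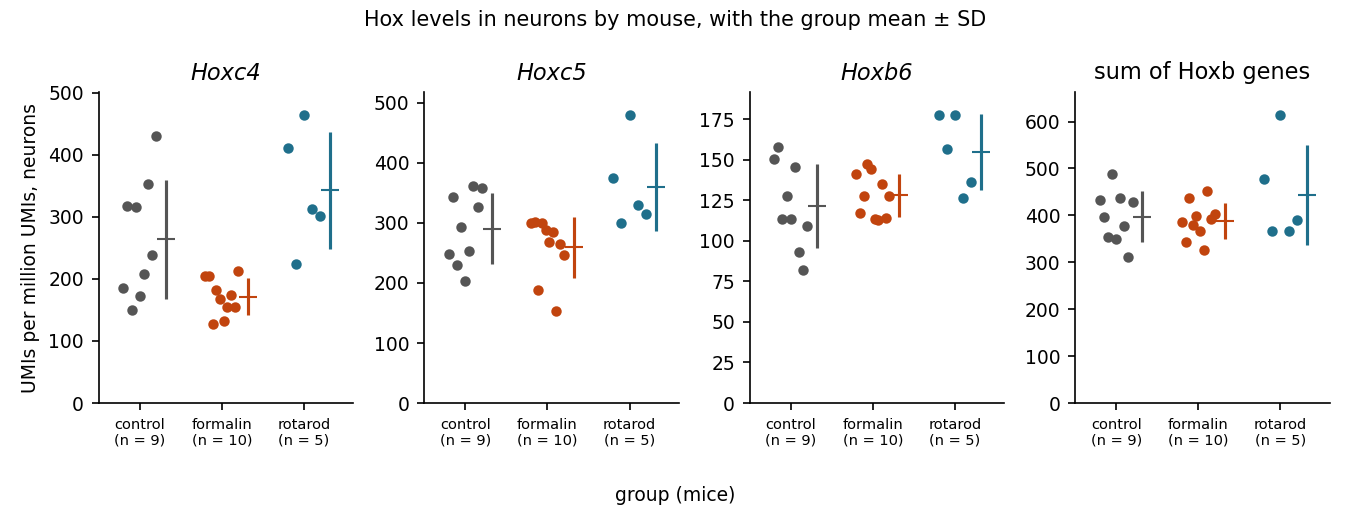
Levels of Hoxc4, Hoxc5, Hoxb6 and the summed Hoxb genes in neurons, in CPM, with 1 point per mouse and the group mean and SD beside the points. All 10 formalin points of Hoxc4 lie at 213 or below and all 5 rotarod points at 225 or above, while the Hoxb sums of the groups overlap.

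Its neighbour Hoxc5 missed the threshold. It ran from 203 to 361 CPM in control mice with a median of 293, from 153 to 301 in formalin mice with a median of 276, and was 375, 299.9, 479.9, 330.1 and 315 in rotarod mice. Of the rotarod values 4 of 5 lay above every formalin sample. The log2 fold change of formalin against rotarod mice was -0.54 (SE 0.16, edgeR adjusted p = 0.0570), which did not pass, and DESeq2 gave -0.55 with an adjusted p of 0.0346. It passed by edgeR with no filter (adjusted p = 0.00800, where 0.778% of genes were called), without the cx control mice (0.0193) and with the formalin and rotarod mice alone in the fit (0.0222). Each of these passes, and that by DESeq2, was made with the formalin pairs not merged. Hoxb4 had -0.64 (54.8 against 83.4 CPM), Hoxb6 -0.33 (128 against 155), Hoxd3 0.65 (25.7 against 14.3) and Hoxb8 0.59 (31.6 against 20.9), with edgeR adjusted p values from 0.117 to 0.169. Of these, Hoxb4 was called with no filter and the formalin pairs not merged (log2 -0.67, edgeR adjusted p = 0.0176). With Hoxc4 and Hoxc5 these were the 6 Hox genes at an unadjusted p under 0.05, where 17.8% of all genes were.

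The mean of Hoxc4 was lower in formalin than in rotarod mice, and than in control mice, in 8 of 8 neuron families and in 5 of 5 classes. Families divide the same neurons and all classes come from the same libraries, so these counts are not independent and carry no test. In DI it was 105 ± 46.9 CPM in formalin (n = 10), 202 ± 93.2 in control (n = 9) and 322 ± 126 in rotarod mice (n = 5). In DE it was 184 ± 62.7, 306 ± 132 and 336 ± 80.3 CPM. In dorsal neurons together the log2 difference from rotarod mice was -1.05 (SE 0.24, edgeR adjusted p = 0.0445), where 0.361% of genes were called, lost with merged pairs (edgeR adjusted p = 0.187) and when any 1 of 14 mice was left out: control replicates 2 and 8, formalin replicates 1 and 3 to 9, and rotarod replicates 1, 3, 4 and 5 (adjusted p 0.0559 to 0.188). In meningeal or Schwann cells the means were 217 ± 64.2, 343 ± 162 and 472 ± 144 CPM, in astrocytes 118 ± 50.1, 224 ± 103 and 267 ± 167, for formalin, control and rotarod mice in turn. Group fits by edgeR called 0 Hox genes in these classes, in oligodendrocytes and in ventral neurons, but few were tested. The filter kept 6 Hox genes in meningeal or Schwann cells, 2 in astrocytes, 1 in oligodendrocytes, 7 in ventral neurons and 0 in vascular cells. With no filter Hoxc4 was called lower in formalin than in rotarod mice in meningeal or Schwann cells (edgeR adjusted p = 0.000691, where 0.137% of genes were called) and ventral neurons (0.0222, 0.0865% of genes). It was then also called lower than in control mice in oligodendrocytes (edgeR adjusted p = 0.0374, 0.0224% of genes), ventral neurons (0.0180, 0.0865%) and dorsal neurons (0.000409, 0.0269%). These calls with no filter were made with the formalin pairs not merged. Their shares are over all genes with a count, low ones included. Of all genes, formalin against rotarod mice gave 1.33% in astrocytes, 0.0611% in meningeal or Schwann cells, 0.475% in oligodendrocytes and 0.02% in ventral neurons, rotarod against control mice 0.388%, 0.0917% and 0.0317% in the first 3, and formalin against control mice 0 in each. In 9216 genes tested for a group difference that was unlike in neurons and non-neuronal nuclei, edgeR called 0, with 1 Hox gene at an unadjusted p under 0.05 in formalin against control mice, where 5.37% of all genes were.

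**Figure D5:**
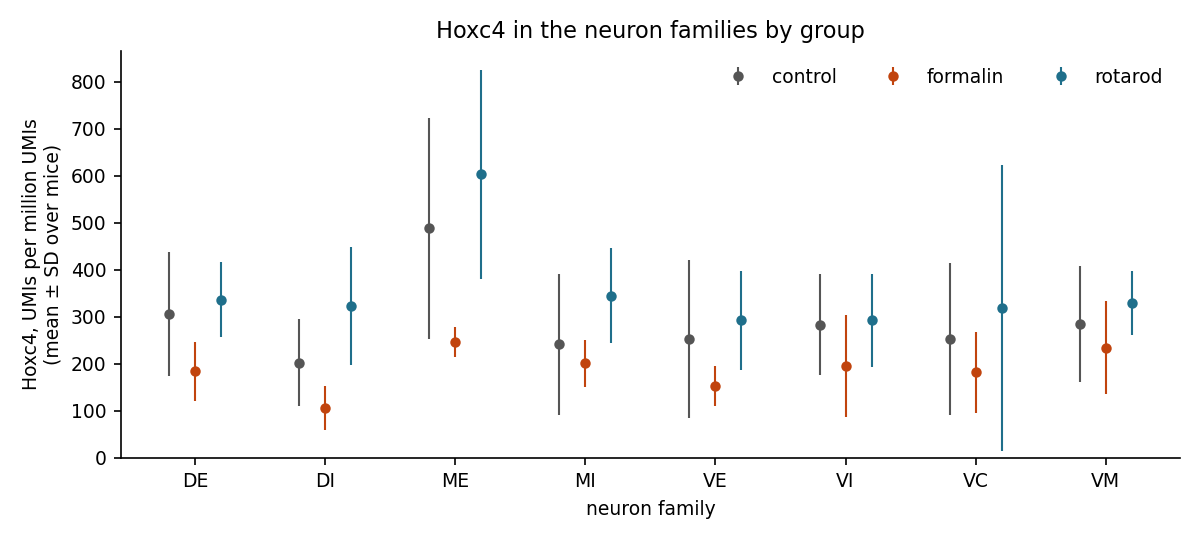
Mean Hoxc4 level (points) and SD between mice (bars) in 8 neuron families, in CPM, for control, formalin and rotarod mice. The formalin mean is the lowest of the 3 groups in every family, from 105 in DI to 247 in ME, with 2 formalin mice in ME and in VM.

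Barcodes that the authors discarded held Hoxc4 at 274 ± 56.9 CPM in formalin, 345 ± 122 in control and 468 ± 214 in rotarod mice. The part of free RNA in the Hoxc4 difference was not tested. Neuronal nuclei had a median of 1744 UMIs in the median formalin mouse, against 2411 in control and 2352 in rotarod mice, and with depth per nucleus as a covariate, an alternative chosen after seeing the data, the Hoxc4 log2 fold change was -1.05 at an edgeR adjusted p = 0.0258. The share of dorsal among dorsal and ventral nuclei was 68.3% in the median formalin mouse, 67.7% in control and 65.2% in rotarod mice. Of the other lists, 1 of 9 TALE cofactors tested, Pknox2 (log2 -0.55, 129 against 181 CPM), and 1 of 11 Polycomb genes tested, Rnf2 (log2 -1.12, 7.25 against 15.02 CPM), were lower in formalin than in rotarod neurons by edgeR, where 2.15% of all genes were called, and none of 5 Trithorax and demethylase, 3 embryonic input and 3 noncoding genes was called. With the formalin pairs merged neither call was kept, at edgeR adjusted p values of 0.0767 for Pknox2 and 0.0950 for Rnf2.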

How the data were processed

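Counts of UMIs per gene and nucleus, 1 deposited table over 24 mice, were made by the authors, and no columns fell outside the 24 samples. Classes, families and populations are the authors' deposited annotation. The builds GRCm38 and mm10 are named per the submitters' processing notes, while aligner, annotation, strand and intron handling were not given in the sources used here. Nuclei were not filtered further and doublets were not called. UMIs were summed per mouse and class (at least 10 nuclei) or family (at least 5) and each sum entered a quasi-likelihood fit in edgeR 4.0.16 on R 4.3.3 with TMM scaling and filterByExpr, adjusted by Benjamini-Hochberg over all genes tested with a threshold of 0.05. SE is the log2 fold change over the square root of F. No label states that the samples of a group came from separate animals, so p-values measure the spread between these samples. Gene positions and lengths are from GENCODE M21 (GRCm38). The fits were tested on simulated data. Alternatives were DESeq2 1.42.0, its size factors, no filter, other nucleus minimums, merged formalin samples, a replicate block, fewer control mice and each mouse left out. Depth per nucleus as a covariate was chosen after seeing the data. Members and lists were chosen with earlier results of these data known. Full values are given for called members and the 10 with most UMIs in neurons, and up to 4 called genes per pathway list. Values of some genes are not reported here.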

Additional observations from a re-analysis of the deposited data

Results flagged for a closer look

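Hoxb3 in neurons of rotarod replicate 3 stood at 175 CPM, far above the next of the 5 rotarod mice at 90.0. Of 45 groups of values examined for such a gap this was the one found, and chance alone would mark about 1 in 20 groups, more than were found. Barcodes that the authors discarded, which entered no comparison, held 798 CPM of Hox UMIs when pooled, and barcodes with no label held 789, above the 1.06 and 4.75 CPM that a count of 0 allows.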

How the results depend on the processing

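No called result changed direction. Hoxc4 in dorsal against ventral families, not called, had a log2 fold change of -0.08 and, with no filter on low counts, 0.03. Of 39 called differences of single Hox genes, 16 lost the call under at least 1 of 535 alternatives in all, of which 463 kept it. With no filter on low counts the number of Hox genes called went from 5 to 10 in dorsal against ventral families, from 1 to 2 in dorsal neurons between groups, from 1 to 0 in excitatory against inhibitory families, from 17 to 37 in neurons against the other classes, from 0 to 1 in neurons of formalin against control mice, in meningeal or Schwann cells and in oligodendrocytes, from 0 to 2 in ventral neurons, and from 1 to 3 in neurons of formalin against rotarod mice. DESeq2 called 2 in the last and 1 in meningeal or Schwann cells. The class fits with no filter tested 30 Hox genes and the filtered ones 6. They called 13 against oligodendrocytes, 7 against meningeal or Schwann cells, 6 against astrocytes and 11 against vascular cells. Of all genes, 19%, 23.9%, 17% and 25.9% were called in that order. Without the cx control mice the counts were 3 in dorsal against ventral families, 4 of 14 over single families and 3 in formalin against rotarod neurons, also 3 with those 2 groups alone in the fit. With at least 10 nuclei the excitatory against inhibitory count was 0. Merging formalin samples left 0 in neurons and 0 in dorsal neurons, and 4 of 196 genes in all. Formalin and rotarod samples of the same number correlated at -0.11 to 0.109, with 1 of 5 closest to its number. These few values show no pairing by number, and whether such samples share a preparation was not tested. With the replicate block Hoxc4 had a log2 fold change of -0.96 (edgeR adjusted p = 0.0316), and 31 genes were called against 196. Leaving out 1 mouse gave 0 to 1 Hox calls in astrocytes, in dorsal neurons and in meningeal or Schwann cells, 0 to 2 in formalin against rotarod neurons, 10 to 15 over families, 15 to 17 over classes and 5 to 5 in dorsal against ventral families. Depth limited what was tested: the filter on low counts kept 6 Hox genes in the family fit.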

Other observations

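Hoxb8 was high in the barcodes with no label. They held 68 Hoxb8 UMIs, or 108 CPM, against 23.5 in neurons and 34.8 in discarded barcodes, each pooled over mice. By mouse the values were 240 ± 266 CPM in control (SD, n = 4), 161 ± 200.1 in formalin (n = 4) and 65.1 ± 38.8 in rotarod mice (n = 5), for mice with at least 10 such barcodes. The spread is as wide as the mean in the first pair of groups, and the difference was not tested.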
